A study of Mus musculus with 58 samples.

Results

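This comparison set chromatin-associated RNA (ChrRNA-seq) from cells with a mutated SPEN SPOC domain in the DelPID background against DelPID cells, after 3 days of neural differentiation with Xist switched on. The members were taken from the library titles. They are 4 of the 58 libraries of the series: clones A8 and G3 of the double mutant line (DelPID_SPOC) and replicates 1 and 2 of the DelPID line. All 4 came from female hybrid mouse embryonic stem cells (mESC, 129S x Cast) in which the Xist promoter of the 129S allele, called Dom here, was replaced by a TetOn promoter. DelPID cells carry in addition a deletion in Xist that removes the PID region, the B/C-repeat part of the RNA that brings in Polycomb complexes, so that both groups lack it. DelPID_SPOC cells also carry point mutations in the SPOC domain of SPEN, which abolish its contact with the SMRT/NCoR corepressors. The cells were separated from feeder fibroblasts and grown in N2B27 medium on the way to neural precursor cells (NPC) with 1 ug/mL doxycycline for all 3 days. DelPID replicates are cultures of 1 line, and each DelPID_SPOC library is 1 culture of a different clone. The study describes the clone it calls G as tetraploid with both X alleles doubled. The SPOC mutation is named in the titles of the DelPID_SPOC libraries but not in their engineering label, and gene counts cannot show point mutations.

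Xist is the long non-coding RNA that coats one X chromosome of female mammals in cis and silences its genes. SPEN binds the A-repeat of Xist, and its SPOC domain recruits NCoR and the histone deacetylase HDAC3. Polycomb complexes, recruited through the PID region and hnRNPK, place repressive marks on histones along the same chromosome. Comparing DelPID_SPOC with DelPID asks what SPOC-linked silencing contributes where Xist does not recruit Polycomb. Because Xist was on the Dom X only, silencing is read from the Dom share of a gene, that is, its Dom fragments as a fraction of all its allelic fragments. A share of 0.5 means equal output of both alleles.

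In DelPID_SPOC cells the Dom X gave as many transcripts as the Cast X, whereas in DelPID cells it gave about 1 fragment for each 2 from the Cast X. Summed over the 246 X-linked genes that the study followed, Dom fragments amounted to 24.8 and 27.5 per 10000 fragments of the library in DelPID replicates 1 and 2. In DelPID_SPOC clones A8 and G3 they amounted to 53.7 and 52.7. Cast fragments of the same genes stayed within a narrow range, at 53.6 and 51.6 in DelPID and 52.9 and 50.1 in DelPID_SPOC. The groups therefore did not overlap on the Dom X and overlapped on the Cast X. In bulk RNA, more output per cell and more cells with an active Dom X cannot be told apart. On day 0 of ES culture, before doxycycline, clones A8 and G3 had 58.5 and 60.8 Dom fragments and 53.7 and 57.2 Cast fragments per 10000.

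**Figure D1:**
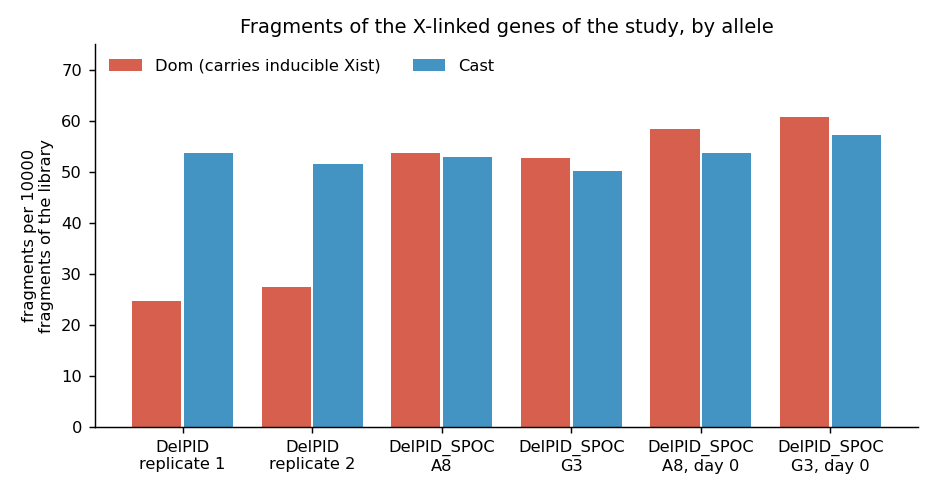
Fragments of the 246 X-linked genes assigned to the Dom (red) and Cast (blue) allele, per 10000 fragments of each library, for 2 DelPID and 2 DelPID_SPOC libraries on NPC day 3 and the same clones in ES culture on day 0. The Dom bars of DelPID stand at 24.8 and 27.5 and those of DelPID_SPOC at 53.7 and 52.7, while all Cast bars on day 3 lie between 50.1 and 53.6.

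Depth ran from 6.37 M (mega) fragments in DelPID replicate 1 to 19.7 M in DelPID replicate 2, 20.7 M in A8 and 21.6 M in G3, of which 46.5% to 47.0% could be assigned to an allele. The allele balance of 4 autosomes was not the same in all 4 libraries. On chromosome 8 Dom fragments made up 35.2% to 36.7% in both DelPID libraries and A8 but 50.4% in G3, and on chromosome 16 they made up 33.1% in DelPID replicate 1 but 48.5% to 49.7% in the others. Chromosome 6 stood at 47.1% in G3 against 51.8% to 52.8%, and chromosome 17 at 46.5% in A8 against 51.1% to 52.3%. The other 15 autosomes varied by at most 4.09 percentage points. For this reason the rates of autosomal genes called in the main test of the Dom share are given with and without these 4 chromosomes. The 4 were picked after their values were seen. Other autosomal rates and medians include them. The part of these shifts in the results was not tested.

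Xist itself was counted at 9110 and 6475 CPM (counts scaled to a library total of 1000000 fragments) in DelPID replicates 1 and 2, and at 4944 and 8283 CPM in A8 and G3, so the groups overlapped. Its log2 fold change was -0.28 ± 0.237 (SE; edgeR quasi-likelihood test, adjusted p = 0.626). On day 0 the same clones had 53 and 50.4 CPM. Xist (chromosome X, 103460373 to 103483233 of mm10, minus strand) was induced in all 4 cultures, and its level did not separate them. Spen, which encodes the mutated protein, was higher in both DelPID_SPOC libraries, at 533 and 400 CPM against 189 and 141 CPM. That change of 1.47 ± 0.313 on the log2 scale missed the threshold of 0.05 (edgeR, adjusted p = 0.0894). Among 22 factors known to act in Xist silencing, including Ncor1, Hdac3, Hnrnpk and Polycomb subunits, none passed in either direction by edgeR, 2 had an unadjusted p under 0.05, and the median log2 change was -0.02.

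Of the 246 genes, 217 had at least 10 allelic fragments in each of the 4 libraries and were tested. Their median Dom share was 0.306 in DelPID replicate 1 and 0.357 in replicate 2. It was 0.511 in A8 and 0.525 in G3, so that both clones stood above both DelPID cultures. The means of the medians differed by 0.187, and the spread within groups was 0.0361 (SD, n = 2) in DelPID and 0.00995 (SD, n = 2) in DelPID_SPOC. An exact permutation test of the 4 medians (two-sided) returned p = 0.333, and with 2 libraries a group no smaller value can occur. At the level of genes the interquartile range ran from 0.222 to 0.381 in DelPID replicate 1 and from 0.273 to 0.429 in replicate 2, but only from 0.455 to 0.548 in A8 and from 0.469 to 0.563 in G3. The mean share lay between 0.4 and 0.6 for 182 of the 217 genes in DelPID_SPOC and for 62 in DelPID. It lay under 0.2 for 2 genes in DelPID_SPOC and for 31 in DelPID.

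**Figure D2:**
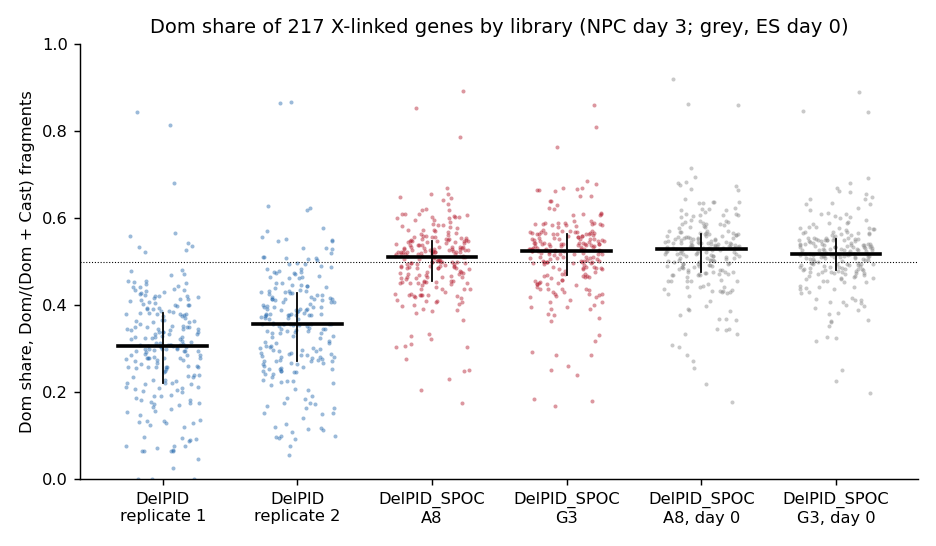
Dom share of each of the 217 tested X-linked genes (points) in the 4 libraries of NPC day 3 and in the 2 DelPID_SPOC clones on ES day 0, with the median as a thick bar and the interquartile range as a thin line. The medians of 0.306 and 0.357 in DelPID lie under 0.5, and those of 0.511 and 0.525 in DelPID_SPOC lie beside the day 0 medians of 0.528 and 0.518.

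Gene by gene, 215 of the 217 had a higher mean share in DelPID_SPOC, and in 198 both clones were above both DelPID libraries. The same pattern without overlap occurred in 12.8% of autosomal genes. The test of Dom and Cast counts (edgeR quasi-likelihood, 16 NPC day 3 libraries, adjusted over 11039 genes of all chromosomes) called 99 X-linked genes higher, 45.6% of those tested. Of 10667 autosomal genes 0.075% were called higher and 0.262% lower, and without the 4 shifted chromosomes 0.0462% and 0.266%. No X-linked gene was called lower by edgeR, none had an unadjusted p under 0.05 in that direction, and limma on the shares called none either. Called genes rose in mean share by 0.0864 to 0.389. The number called rested on the shared estimate of spread: with the 4 libraries alone 16 genes passed, and without DelPID replicate 2 there were 58, while 163 and 155 had an unadjusted p under 0.05. The study grew DelPID in parallel with each clone but does not say which replicate went with which, and with the pairs as a block 57 genes passed in the listed order and 5 in the crossed order. The 118 genes that were not called had a median of 47 allelic fragments in their shallowest library against 215 for called genes, and 99 of them also had both clones above both DelPID libraries. At the threshold stood Rpl10 and Tmem28 just inside and G6pdx and Ogt just outside. A further 29 of the 246 genes were not tested for lack of fragments, and 20 of them had a higher mean share in DelPID_SPOC.

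**Figure D3:**
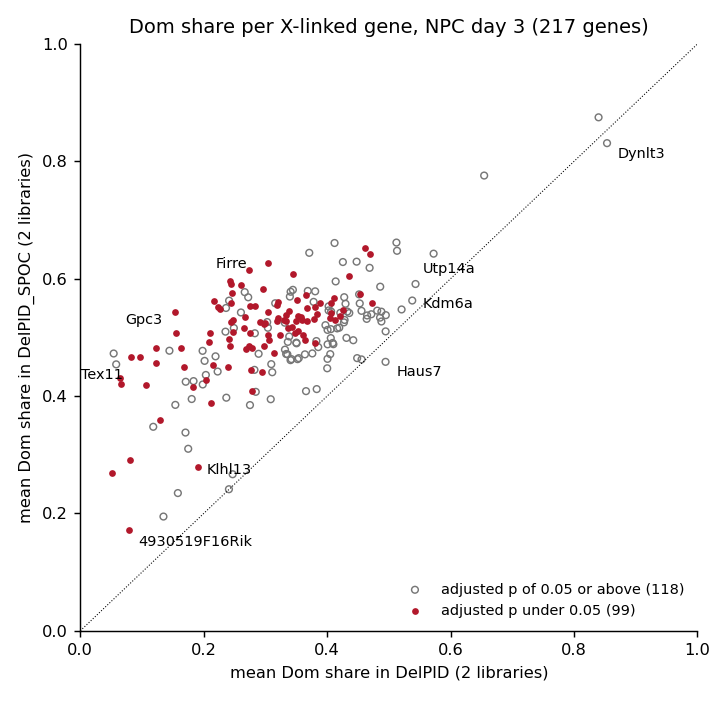
Mean Dom share of each of 217 X-linked genes in DelPID (horizontal) and in DelPID_SPOC (vertical), 2 libraries each, on NPC day 3, with genes called by edgeR filled in red (99) and the others open (118). Nearly all points lie above the dotted line of equal shares, and in the vertical direction 182 of them lie between 0.4 and 0.6.

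The 10 genes with the largest rise among the 145 that had at least 50 allelic fragments in each library all passed the test. Tex11, a meiosis gene (chromosome X, 100838648 to 101059639 of mm10), had shares of 0.0654 and 0.0997 in DelPID and of 0.423 and 0.510 in A8 and G3. Nhsl2 had 0.0980 and 0.0957 against 0.486 and 0.449. These genes had shares of at most 0.0997 in DelPID and of at least 0.423 in both clones, with log2 changes of the Dom to Cast ratio of 3.16 ± 0.279 and 3.04 ± 0.290 (SE; edgeR adjusted p = 1.17e-05 and 2.27e-05). Gpc3 (52272427 to 52613974, minus strand) and its neighbour Gpc4 encode glypicans, cell surface proteoglycans that modulate growth factor signalling. Gpc3 had 0.156 and 0.153 in DelPID against 0.504 and 0.510 in DelPID_SPOC, with 1575 to 11525 allelic fragments per library behind each share. Its 95% Wilson intervals, which cover counting error only, reached at most 0.175 in DelPID and began at 0.490 in DelPID_SPOC. Gpc4 had 0.131 and 0.114 against 0.465 and 0.446. Gpc4 was lower than Gpc3 in each of the 4 libraries, and both rose, with log2 ratio changes of 2.49 ± 0.150 and 2.62 ± 0.261 (SE).

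Firre, which makes a nuclear long non-coding RNA, had 0.228 and 0.258 in DelPID and went past balance to 0.610 and 0.582 in DelPID_SPOC, near its day 0 shares of 0.634 and 0.669. Pcyt1b, an enzyme of phosphatidylcholine synthesis, had 0.0764 and 0.168 against 0.436 and 0.527. Pdzd4 had 0.213 and 0.274 against 0.573 and 0.610. In each of these the lower clone was well above the higher DelPID culture. Med12, a subunit of the Mediator complex, had 0.162 and 0.272 against 0.500 and 0.623. Fhl1, a LIM domain protein, had 0.219 and 0.271 against 0.607 and 0.543. Dlg3, a synaptic scaffold protein, had 0.207 and 0.314 against 0.508 and 0.669. Med12 and Dlg3 were the shallowest of the 10, with 68 and 82 allelic fragments in DelPID replicate 1, and their clones differed most.

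The 6 genes with the smallest change were near or above balance in DelPID already. Kdm6a (18162667 to 18279358), a histone H3K27 demethylase known to escape X inactivation, had 0.544 and 0.532 in DelPID and 0.559 and 0.567 in DelPID_SPOC, with at least 1936 allelic fragments per library. The log2 ratio change of 0.15 ± 0.0751 (SE) did not pass (edgeR adjusted p = 0.497). Dynlt3, a dynein light chain, had 0.843 and 0.864 against 0.853 and 0.809, and its day 0 shares of 0.862 and 0.890 were as skewed. Xk, a membrane protein of red cells, had 0.434 and 0.478 against 0.453 and 0.472. Haus7, a subunit of the augmin complex of the spindle, had the lowest difference of all, with 0.442 and 0.547 against 0.451 and 0.466 (edgeR adjusted p = 0.672). In none of these did the groups separate, except for Kdm6a, where both clones were slightly higher. Mtmr1 had 0.566 and 0.423 against 0.471 and 0.550, and Fundc2 had 0.533 and 0.508 against 0.483 and 0.612, with 53 and 60 fragments in the shallowest library.

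**Figure D4:**
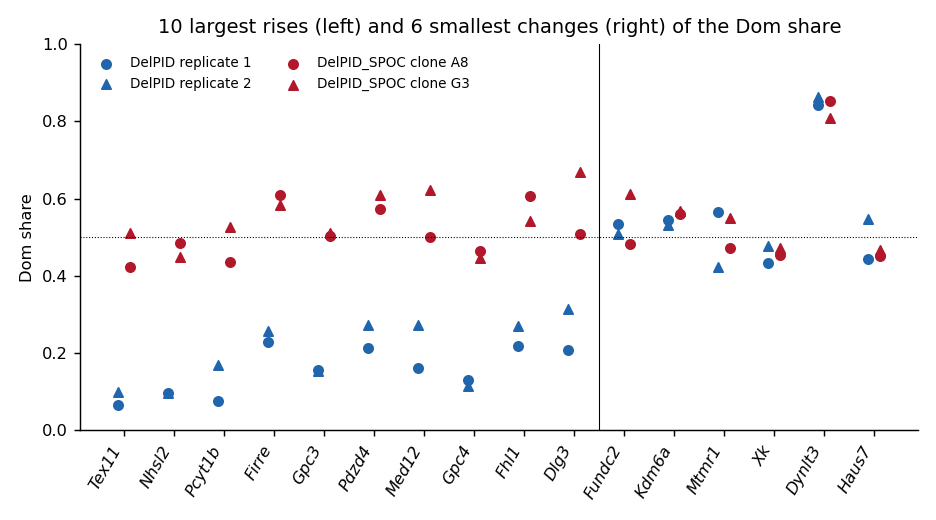
Dom share in each of the 4 libraries (blue, DelPID; red, DelPID_SPOC; circles and triangles, the 2 libraries of a group) for the 10 genes with the largest rise and the 6 with the smallest change, among 145 genes with at least 50 allelic fragments in each library. On the left every red symbol is above every blue symbol of its gene, and on the right the symbols mix, apart from Kdm6a at 0.532 to 0.567.

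The promoters of Gpc3 and Kdm6a are shown as the most deeply counted examples of a large and of a small difference. The 250 bases before the start of the RefSeq gene model (GRCm38.p6), which need not be the start in the deposited files given above, are printed with CG dinucleotides in capitals, for Gpc3 (chrX:52613975-52614224, minus strand) and Kdm6a (chrX:18162325-18162574, plus strand).
Gpc3: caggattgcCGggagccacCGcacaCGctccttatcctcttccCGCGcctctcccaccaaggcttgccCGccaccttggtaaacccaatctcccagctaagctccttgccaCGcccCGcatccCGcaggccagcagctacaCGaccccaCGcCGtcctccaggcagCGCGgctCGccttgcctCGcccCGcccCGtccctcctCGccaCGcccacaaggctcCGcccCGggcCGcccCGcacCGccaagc
Kdm6a: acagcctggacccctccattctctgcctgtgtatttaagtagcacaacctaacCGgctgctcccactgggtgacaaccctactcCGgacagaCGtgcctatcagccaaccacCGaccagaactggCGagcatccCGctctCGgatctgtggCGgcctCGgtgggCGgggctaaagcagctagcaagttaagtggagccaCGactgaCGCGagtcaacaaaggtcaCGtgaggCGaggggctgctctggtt
The printed stretches hold 25 and 15 CG. Within the window of 300 bases that runs 50 bases past the start, 177 of the 217 tested genes had a RefSeq promoter, and their median was 17 CG, both for the 77 called and for the 100 that were not. For comparison, the median over all promoters and over X promoters was 7 CG. At least 10 CG were found in 74.0% of called genes, in 80.0% of the others and in 43.9% of all promoters.

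Genes with the lowest and highest shares in DelPID_SPOC show how far single genes departed from balance. 4930519F16Rik, 0.227 Mb from Xist, had the lowest, 0.175 and 0.170 in A8 and G3, with 0.0657 and 0.0917 in DelPID. Klhl13, an adaptor of a cullin ubiquitin ligase, had 0.307 and 0.251 against 0.172 and 0.208. Both passed the test, with log2 ratio changes of 1.17 ± 0.193 and 0.71 ± 0.149 (SE; edgeR adjusted p = 0.00369 and 0.0247), although they stayed well under 0.5. Atp6ap1, an accessory subunit of the vacuolar proton pump, had 0.204 and 0.185 against 0.120 and 0.149. Lancl3 had 0.230 and 0.240 against 0.130 and 0.186. These last 2 did not pass, and their day 0 shares of 0.255 and 0.225 and of 0.219 and 0.199 were already low. Mtap7d3 had 0.251 and 0.332 and Las1l, a ribosome biogenesis factor, had 0.398 and 0.372. At the other end were Efhc2 at 0.891 and 0.859, Dynlt3 (above), and the transcription factor gene Zfx at 0.641 and 0.664. They were followed by 1810030O07Rik at 0.656 and 0.640, Rpl10 at 0.618 and 0.665 and Taz, the tafazzin of cardiolipin remodelling, at 0.605 and 0.651. Rpl10, a ribosomal protein gene, has many processed copies in the genome, so its counts are uncertain. Of this group Zfx and Rpl10 passed the test.

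The clones on day 0 give the share that each gene had without Xist induction. Day 3 differs from day 0 in culture as well as in doxycycline, so effects of these cannot be told apart. On day 1 of ES culture with doxycycline A8 and G3 had median shares of 0.514 and 0.511. Over the 217 genes the median change from day 0 to day 3 was -0.0201 in A8 and -0.00324 in G3. Both clones stayed within 0.1 of day 0 for 184 genes, while 4 genes fell by more than that in both and 2 rose. With the clone as a term, edgeR called 14 of 240 tested genes lower on day 3 than on day 0 and 3 higher. That was 5.83% and 1.25% of the X-linked genes, beside 2.24% and 3.48% of autosomal genes. The autosomal rates include chromosome 16, whose Dom fragments in A8 went from 34.3% on day 0 to 49.7% on day 3. No rate without it was computed. Without the clone term no gene passed by edgeR and 19 had an unadjusted p under 0.05, and limma also called none, with 25 under that value.

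4930519F16Rik fell by 1.34 on the log2 ratio scale, from 0.369 and 0.327 on day 0 to the values above (SE 0.160, edgeR with the clone term, adjusted p = 2.86e-14). That p-value rests mainly on a spread shared among genes, and without the clone term or by limma this gene did not pass. Gyk, the glycerol kinase gene, had 0.674 and 0.660 on day 0 and 0.553 and 0.554 on day 3. Eda, the ectodysplasin ligand, had 0.475 and 0.476 on day 0 and 0.382 and 0.393 on day 3. Stard8 had 0.346 and 0.361 against 0.277 and 0.261. In all 4 genes both clones were lower on day 3. Mtap7d3 went the other way, from 0.179 and 0.252 to 0.251 and 0.332. The starting shares of the DelPID line itself were not analysed here.

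The study sorted the 246 genes by how fast they are silenced in cells with intact Xist. In DelPID the fast class was the most silenced, with a median share of 0.206 and 0.257 over 66 tested genes. In A8 and G3 the same genes stood at 0.488 and 0.507. The intermediate class (75 genes) went from 0.318 and 0.357 to 0.522 and 0.525, and the slow class (74 genes) from 0.379 and 0.433 to 0.521 and 0.539. The classes thus lay apart in DelPID and close together in DelPID_SPOC. The numbers called higher were 49 of 66 fast, 31 of 75 intermediate and 19 of 74 slow genes, beside 99 of all 217. Median differences in share were 0.256, 0.161 and 0.121, beside 0.175 for all.

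The study also divided the genes by their response to the SPOC mutation in a line with intact PID, a choice made on other libraries of the same series and so no independent evidence of direction. In DelPID the 91 SPOC-dependent genes had medians of 0.351 and 0.413, and they reached 0.524 and 0.547 in DelPID_SPOC. The 126 SPOC-independent genes went from 0.275 and 0.306 to 0.500 and 0.506. Of the first class 34 were called (37.4%), and of the second 65 (51.6%), beside 45.6% of all tested genes. SPOC-independent genes are those that keep silencing in SPOC mutant cells with intact PID. Their median mean share was 0.337 in that SPOC line on NPC day 3 and 0.499 in DelPID_SPOC. SPOC-dependent genes had 0.495 and 0.541 in the same order. The study chose the classes by the shares of the SPOC line on day 6, so the gap between the lines is not independent of that choice. Genes in chromatin that a model of histone marks put in an H3K27me3 state before induction (28 pre-K27me3 genes) went from 0.243 and 0.275 to 0.490 and 0.509. For the 164 pre-Active genes the change was from 0.322 and 0.378 to 0.518 and 0.529. Of these classes 13 (46.4%) and 77 (47.0%) were called, close to the 45.6% of all tested genes. The median differences were 0.216 for pre-K27me3 and 0.168 for pre-Active genes, with medians of 83 and 108.5 allelic fragments in the shallowest library.

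By distance from Xist, the median difference was 0.211 for the 92 genes near Xist, 0.191 for 38 at intermediate distance and 0.138 for 87 far from it. Called genes numbered 47 (51.1%), 26 (68.4%) and 26 (29.9%), beside 45.6% of all. The medians of allelic fragments in the shallowest library were 87, 138 and 80 in the same order. In DelPID_SPOC the medians of A8 and G3 were 0.512 and 0.529 near Xist and 0.517 and 0.535 far from it, and DelPID had 0.299 and 0.342 near Xist and 0.326 and 0.399 far from it. Sorted by dependence on SmcHD1, a chromatin protein of late X inactivation, there were 33 dependent, 83 partially dependent and 57 independent genes. Their median differences were 0.138, 0.160 and 0.182, and 9 (27.3%), 36 (43.4%) and 31 (54.4%) of them were called. In the shallowest library they had medians of 41, 119 and 102 allelic fragments. The part of depth in the rates of these classes was not tested.

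**Figure D5:**
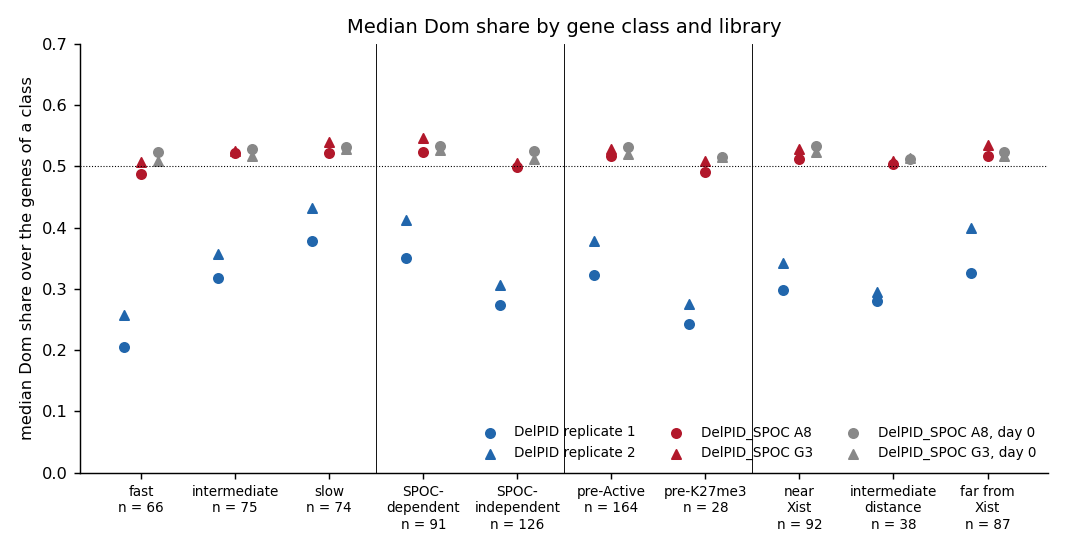
Median Dom share over the tested genes of each class in each library (blue, DelPID on NPC day 3; red, DelPID_SPOC on NPC day 3; grey, DelPID_SPOC on ES day 0), by silencing speed, response to the SPOC mutation in cells with intact PID, chromatin state before induction and distance from Xist. The blue symbols run from 0.206 in the fast class to 0.433 in the slow class, and the red ones stay between 0.488 and 0.547.

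Functional groups of X-linked genes were set beside all 217 tested genes, of which 45.6% were called, 198 had both clones above both DelPID libraries and the median difference was 0.175. The counts of the groups are small, and none was tested against the other genes. Groups also differed in depth, with medians from 69.5 (neural) to 676 (escape genes) allelic fragments in the shallowest library, beside 92 for all. Of 17 tested chromatin regulators 9 were called higher (52.9%) and all 17 had both clones above both DelPID libraries, with a median difference of 0.171. Med14, another Mediator subunit, had 0.364 and 0.448 against 0.526 and 0.556 and passed. Ogt, the O-GlcNAc transferase, had 0.378 and 0.387 against 0.489 and 0.498 and did not (edgeR adjusted p = 0.0547). Of 17 pluripotency and signalling genes 10 were called (58.8%), with a median difference of 0.230. Of 19 RNA processing and translation genes 8 were called (42.1%), with a median difference of 0.116. The cold-inducible RNA-binding gene Rbm3 went from 0.457 and 0.487 to 0.552 and 0.564, and Dkc1, the pseudouridine synthase, had 0.361 and 0.371 against 0.421 and 0.396 without passing.

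Of 18 metabolic genes 12 were called (66.7%), with a median difference of 0.188. Ocrl, an inositol phosphatase, had 0.225 and 0.254 against 0.447 and 0.452. Maoa, the monoamine oxidase, had 0.401 and 0.450 against 0.534 and 0.559. Of 10 ubiquitin system genes 5 were called (50.0%), with a median difference of 0.167. Usp9x, a deubiquitinase, had 0.307 and 0.378 against 0.500 and 0.536, and Uba1, the ubiquitin activating enzyme, had 0.472 and 0.504 against 0.524 and 0.563 without passing. Of 14 neural genes 6 were called (42.9%), with a median difference of 0.228. Fgf13 had 0.203 and 0.206 against 0.431 and 0.425. Among 4 genes known to escape silencing in mouse cells the median difference was 0.0819 and 2 were called (50.0%). One of them was Ddx3x, an RNA helicase gene, with 0.410 and 0.431 against 0.544 and 0.528. Utp14a had 0.535 and 0.551 against 0.610 and 0.572 and did not pass.

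The same SPOC mutation in cells with intact PID gives a comparison with no shared library. Its control is the WT line, which has the TetOn Xist and no mutation of PID or SPEN. WT libraries on NPC day 3 had median shares of 0.193 and 0.183 over the 217 genes, and the SPOC clones D9 and H1 had 0.417 and 0.411. The median gain per gene was 0.192 there and 0.175 in the DelPID background, where it started from a higher share. The mean share was higher in DelPID_SPOC than in SPOC for 196 of the 217 genes. On the share scale the gain was larger in the DelPID background for 80 of the 217 genes, and the median difference between the gains was -0.041. On the log2 ratio scale the gain was smaller in the DelPID background for 188 genes. The median difference there was -0.58, beside -0.03 for autosomal genes. The test of this difference (edgeR interaction term) passed for 4 genes, 1.84% of those tested, all with a smaller gain in the DelPID background, beside 0.0281% of autosomal genes in that direction and 0.281% in the other. limma on the shares called none, with 54 genes under an unadjusted p of 0.05, and without DelPID replicate 2 a single gene was called, while without A8 or G3 there were 25 and 28.

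Tspan7, a tetraspanin of neurons, had 0.214 and 0.218 in WT, 0.459 and 0.478 in SPOC, 0.453 and 0.510 in DelPID and 0.550 and 0.541 in DelPID_SPOC. Pola1, the catalytic subunit of DNA polymerase alpha, had 0.169 and 0.158, 0.486 and 0.504, 0.324 and 0.351, and 0.523 and 0.568 in the same order. Chic1, the tested gene nearest to Xist, had 0.141 and 0.140, 0.519 and 0.536, 0.258 and 0.324, and 0.528 and 0.525. Zfp185 had 0.122 and 0.118, 0.361 and 0.321, 0.362 and 0.360, and 0.497 and 0.509. For Chic1 the shares of SPOC and DelPID_SPOC overlapped, whereas for Pola1, Tspan7 and Zfp185 both DelPID_SPOC clones were above both SPOC clones. In a further line with the SPOC mutation and intact PID, the Polycomb subunits PCGF3 and PCGF5 were degraded by dTAG treatment. Its clones F10 and F6 had median shares of 0.555 and 0.503 on NPC day 3, on either side of the 0.511 and 0.525 of DelPID_SPOC. For a clone of this line, the study interprets an upward skew of NPC shares as selection for cells that lost the Cast X. Its legend names that clone neither F10 nor F6, but another legend puts F6 in the figure of the other clone. A share above balance may therefore not measure silencing alone. On NPC day 6 the mean share was higher in DelPID_SPOC than in DelPID for 211 of the 217 genes, with medians of 0.497 and 0.508 against 0.25 and 0.33. The lower of the DelPID values came from a library of 2.29 M fragments.

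Split by allele, the median level of Dom fragments over the 217 genes was 1.95-fold higher in DelPID_SPOC (log2 0.96, on a scale of TMM-normalised CPM + 0.1), with 212 genes higher and 5 lower. For Cast fragments the median log2 change was -0.09, with 81 higher and 136 lower. Autosomal genes had medians of -0.05 for Dom and -0.01 for Cast. Total expression of the 246 genes was higher by a median of 0.39 on the log2 scale (1.31-fold), with 216 genes above 0, against a median of -0.01 over 14612 autosomal genes, of which 49.4% were above 0. In 156 of the 246, or 63.4%, both clones were above both DelPID libraries, beside 21.4% of all genes tested. Among X-linked genes beyond Xist, 220 were tested in total expression and the median log2 change was 0.50. Only 1.07% to 3.58% of allelic fragments there were Dom in the 4 libraries, and no share can be measured. Before induction, on day 0, A8 and G3 already stood at 1.18% and 1.11% there. The study names a recombination event in the line these cells come from as a reason why some genes are not evaluated by allele.

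Single genes seldom passed in total expression. Of 15180 genes tested, 24 were called higher (0.158%) and 14 lower (0.0922%) by edgeR. DESeq2 called 135 and 129, without the shallow DelPID replicate 1 there were 1 and 0 (667 and 775 with an unadjusted p under 0.05), and with the 4 libraries alone none (601 and 567). Of the 24 higher genes 8 were X-linked, 3 of them among the 246 (1.22%), beside 0.109% of autosomal genes called higher and 0.0958% lower. Firre had 195 and 266 CPM in DelPID against 719 and 577 CPM in A8 and G3. Pls3, an actin-bundling protein whose Dom share went from 0.176 and 0.191 to 0.424 and 0.408, had 35.5 and 27.2 CPM against 107 and 93.4. Zfp300, which had too few allelic fragments for a test of its share, had 3.30 and 4.93 CPM against 10.2 and 14. All 3 were higher in both clones than in both DelPID cultures, by 1.48 ± 0.175, 1.66 ± 0.178 and 1.50 ± 0.241 (log2, SE).

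The other 5 X-linked genes called were Gpm6b, Armcx4, Rragb, Tro and Apex2. Gpm6b, a proteolipid of neural cells, changed most, from 6.12 and 5.79 CPM to 22.7 and 27.8 CPM (log2 2.07 ± 0.287, SE, edgeR adjusted p = 0.0157), although clone G3 had 24.7 CPM and A8 5.06 CPM on day 0. Armcx4 had 28.7 and 33.3 CPM against 84.3 and 66.2. Rragb, a Rag GTPase of amino acid sensing, had 78.9 and 58.1 CPM against 166 and 142. Tro, the trophinin gene, had 58.2 and 46.6 CPM against 101 and 112, and Apex2, a DNA repair nuclease, had 59.0 and 72.4 CPM against 125 and 128.

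Outside the X, 16 autosomal genes were higher and 14 lower, 7 of these 30 on the chromosomes with shifted allele balance. Alk, a receptor tyrosine kinase gene on chromosome 17, changed from 42.2 and 56.4 CPM to 269 and 226 CPM (log2 2.31 ± 0.310, SE, edgeR adjusted p = 0.0133), and the same clones had 359 and 388 CPM on day 0. Sox6, a transcription factor gene of neural and mesodermal cells, had 29.0 and 29.7 CPM against 94.2 and 72.6. Col20a1, Cacna1e, Itga1, Trpm3, A230057D06Rik and Trpc6 completed the 8 largest rises, with log2 changes from 1.38 to 2.29. Cacna1e, Trpm3 and Trpc6 encode ion channels. Among genes that fell, Themis, known from T cell development, went from 12.4 and 10.4 CPM to 1.79 and 1.43 (log2 -2.83 ± 0.339, SE, edgeR adjusted p = 0.00639). Thra, the thyroid hormone receptor alpha gene, had 23.5 and 17.5 CPM against 8.84 and 7.49. Igsf21, Atp6v0a4, Jakmip1, Hydin, Spint2 and Ybx2 were the others among the 8 largest falls, with log2 changes between -1.91 and -1.16. Hydin had 10.8 and 11.1 CPM in DelPID and 4.78 and 4.39 CPM in A8 and G3. It lies on chromosome 8, which gave 3.69% of fragments in G3 against 5.14% to 5.17% in the other libraries, A8 among them.

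The labels give the cells as mESC on the way to NPC, and genes of both marker lists were counted. By edgeR no gene of any marker list passed in total expression, with unadjusted p under 0.05 for 0 of 12 naive pluripotency, 2 of 11 core and formative, 4 of 13 neural, 2 of 7 mesoderm and endoderm, 0 of 4 trophoblast and 1 of 10 feeder fibroblast genes. The naive genes summed to 1177 and 1729 CPM in DelPID and to 1438 and 1725 CPM in DelPID_SPOC. Zfp42 had 356 and 497 CPM against 519 and 410, and Esrrb had 381 and 500 against 368 and 507. Neural genes summed to 698 and 1302 against 935 and 1360 CPM. On day 0 of ES culture A8 and G3 had 780 and 1346 CPM of neural and 1976 and 2856 CPM of naive genes. The neural sum therefore does not show a neural state. Cdh2, the neural cadherin gene, had 67.3 and 85.5 against 144 and 242 CPM without passing (edgeR adjusted p = 0.273).

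Core and formative genes summed to 1282 and 629 against 713 and 539 CPM, with Dnmt3b at 675 and 251 against 290 and 158. Mesoderm and endoderm genes summed to 8.16 to 11.1 CPM, trophoblast genes to 16.3 to 43.9 CPM and fibroblast genes to 417 to 762 CPM, nearly all of it Fn1. Sox2 and Sox1 were at 0 in all 58 libraries, so they do not tell cell states apart, and Cdx2 was at 0 in these 4. The Notch genes, in which SPEN has a known role, had none of 19 past the test by edgeR (3 with an unadjusted p under 0.05) and a median log2 change of 0.14. The p53 targets had none of 14 (7 with an unadjusted p under 0.05), with a median of 0.51. Over all 15180 genes tested, 1013 higher and 1017 lower ones had an unadjusted p under 0.05. Among p53 targets, Trp53inp1 had 278 and 331 against 376 and 438 CPM.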

How the data were processed

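The authors removed rRNA reads with Bowtie2 2.3.2, aligned read pairs with STAR 2.4.2a to mm10 with strain differences masked, assigned them to alleles with SNPsplit and ran featureCounts 1.5.2 by strand over whole genes. The deposited counts are raw: all, Cast and Dom fragments per gene. The deposited table of allelic ratios was used for its 246 gene names only, and the gene classes came from the study's supplement. Members and lists were chosen with earlier results of these data known.

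Dom and Cast counts were tested with edgeR 4.0.16 (quasi-likelihood, 1 coefficient per library and 1 Dom to Cast coefficient per group, over 16 NPC day 3 libraries in 8 groups) for genes with at least 10 allelic fragments in each of the 4 libraries. Adjustment was by Benjamini-Hochberg at 0.05. The day 0 test asked for 10 fragments in its own 4 libraries. Total counts were tested with edgeR after filterByExpr and TMM. limma 3.58.1 and DESeq2 1.42.0 (R 4.3.3) served as alternatives. Scripts were tested on simulated data. Starts in the files count from 0 and are given from 1. Intervals cover counting error only. Fragments carry no molecular identifiers, so copies of the same molecule cannot be told apart and the intervals may be too narrow. In each group the spread is between cultures of 1 line or between 2 clones. For the main tests it was pooled over the 8 groups of the 16 libraries, most of which are other lines. Those are WT, SPOC and the line with PCGF3 and PCGF5 degradable by dTAG, with or without dTAG and the SPOC mutation. Replicates of each group differed by more than sampling noise (chi-square per degree of freedom 42.8 and 40.3).

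Named genes were Xist, Spen, the 10 largest rises and 6 smallest changes with at least 50 allelic fragments per library, 6 genes each with the lowest and highest share in DelPID_SPOC, 2 or 3 genes per list by depth, and called genes by size (at least 5 CPM, groups apart).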

Additional observations from a re-analysis of the deposited data

Results flagged for a closer look

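For 4 genes the effect of the SPOC mutation on the Dom share differed between the DelPID and the WT background by a test of that difference (edgeR interaction term). The gain in DelPID minus the gain in WT, on the log2 scale of the Dom to Cast ratio, was -1.09 for Pola1, -1.33 for Tspan7, -1.40 for Chic1 and -1.08 for Zfp185 (SE 0.145, 0.214, 0.267 and 0.200, adjusted p = 0.00637, 0.0124, 0.0328 and 0.0281). In each of the 4 genes all WT libraries were lower than all DelPID libraries, and both mutant groups were higher than their own controls. By limma on the shares none of the 4 passed.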

How the results depend on the processing

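The median difference in Dom share stayed between 0.161 and 0.212 when each library was left out, and at 0.181 and 0.185 with other minimum depths. X genes called higher numbered 16 with the 4 libraries alone and 58 to 122 when each library was left out. No paired design could be fixed, because the study grew DelPID in parallel with each clone without saying which replicate goes with which. The replicate block gave 57 X genes in the listed and 5 in the crossed order. Deviations of total expression correlated by 0.324 between groups in the listed order. In the crossed order this value turns to -0.324 by construction. For the Dom share the correlation in the listed order was 0.064. No X gene was called lower in any fit. Higher total expression was called for 135 genes by DESeq2, 15 with all 58 libraries, 60 with no expression filter, 76 and 1 with the replicate block in listed and crossed order, 0 with the 4 libraries alone (601 at an unadjusted p under 0.05) and 1 to 40 without each library. Lower expression was called for 129 by DESeq2, 42 with no filter, 44 and 0 with the block in listed and crossed order (347 unadjusted in the latter), 0 with the 4 libraries (567) and 0 to 33 without each library. The median total change of X genes lay between 0.30 and 0.45 without each library. Against day 0, 0 genes passed with no replicate block (19 unadjusted) and 0 by limma (25), against 17 with the clone as block. The interaction gave 0 with its 8 libraries alone (81 unadjusted), 0 by limma (54), and 1 to 28 without each DelPID or DelPID_SPOC library in turn (WT and SPOC libraries were not left out).

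Among the genes named by rule (49 for the Dom share, 44 for total expression), leaving out single libraries turned the sign of 12, none of them called. On the log2 ratio scale of the Dom share, Fundc2 ranged from -0.18 to 0.57, Haus7 from -0.51 to 0.094, Mtmr1 from -0.31 to 0.54 and Xk from -0.089 to 0.17. In total expression Col1a2 ranged from -1.70 to 0.026, Esrrb from -0.24 to 0.15, Jarid2 from -1.88 to 0.33, Ncam1 from -0.41 to 0.62, Ncor1 from -0.15 to 0.028, Notch2 from -0.090 to 0.50, Xist from -0.66 to 0.049 and Zfp42 from -0.10 to 0.30. Depth limits DelPID replicate 1, whose median X gene had 68.5 allelic fragments.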

Other observations

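Chromosome 16 stood at a Dom share of 34.3% in clone A8 on day 0 of ES culture and at 49.7% in the same clone on NPC day 3, and it gave 4.09% and 3.06% of all fragments. In DelPID replicates 1 and 2 it stood at 33.1% and 48.8%, with 4.32% and 3.22% of fragments. Clone G3 had 50.6% and 48.5% on the same days, with 3.28% and 3.21%. Chromosome 8 did not move with the day, at 35.1% and 35.2% in A8 and 50.8% and 50.4% in G3.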
